A study of Homo sapiens with 6 samples.

Results

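The genes described here encode the subunits, activators and assembly factors of the proteasome, measured by RNA sequencing in U251, an established human cell line from a glioma. They were taken by symbol, PSM followed by a letter from A to G and a number, with an optional IP ending, and a mean raw count of at least 10. The deposited table lists 60612 genes, of which 49 matched the symbol and 47 became members. The immunoproteasome subunits PSMB8, PSMB9 and PSMB10 form a group of 3 that was read apart. The cells, labelled wild type, were grown in serum-containing medium and sampled at 24 h, in 3 control libraries without 6-shogaol and 3 libraries with it. 6-shogaol is a pungent compound of dried ginger, and the labels give its dose as 60 with the unit written "μm", read here as micromolar. The labels do not say whether the 3 libraries of a group came from separate cultures. The p-values therefore take in only library-to-library variation, and that may be technical.

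The proteasome degrades proteins that carry ubiquitin chains. Its 20S core is a barrel of stacked rings, with alpha subunits (PSMA genes) outside and beta subunits (PSMB genes) inside, and 3 of the beta subunits, encoded by PSMB5, PSMB6 and PSMB7, hold the active sites. The 19S cap binds, unfolds and feeds in the substrate with its ring of ATPases (PSMC genes) and its non-ATPase subunits (PSMD genes). In cells exposed to interferon, PSMB8, PSMB9 and PSMB10 can take the places of PSMB5, PSMB6 and PSMB7, which gives the immunoproteasome, known for making peptides that suit MHC class I. When proteasome activity is short, the transcription factor NFE2L1 (also NRF1) is known to raise the standard subunits together.

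Totals ran from 43516840 to 60018999 counts per library, of which the 47 members held between 0.491% and 0.529%. Member counts lay between 222 and 33304 per library, so that every member was tested. The glial and glioma genes VIM, NES, SOX2, SOX9 and CD44 were abundant and GFAP was present, while S100B, AQP4 and OLIG2 were near 0. Of the markers of other cell types, PTPRC, PECAM1, EPCAM, MBP and RBFOX3 stayed below 1 CPM in every library. Some markers differed between the groups. GFAP was 23.8 to 33.9 CPM in controls and 8.39 to 9.19 CPM with 6-shogaol and was called lower (edgeR adjusted p = 0.00655), as was NES, with 768 to 777 and 539 to 651 CPM (edgeR adjusted p = 0.0484). SOX2 (log2 fold change -0.33) and SOX9 (-0.24) had all 6-shogaol libraries below all controls and did not pass. CD44 went the other way, with all 6-shogaol libraries above all controls (log2 fold change 0.25, SE 0.07, edgeR adjusted p = 0.12). VIM overlapped between groups (0.05, SE 0.19). CD68, a macrophage marker whose exons overlap neighbouring genes over 85.8% of their length, was 12.7 to 14.7 CPM in controls and 15.6 to 28.2 CPM with 6-shogaol (log2 fold change 0.73, SE 0.21, edgeR adjusted p = 0.117). The part of these differences in the results below was not tested. CPM is a gene's count relative to the library total, scaled between libraries by TMM (trimmed mean of M values).

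With 6-shogaol the transcripts of the immunoproteasome subunits PSMB9 and PSMB8 fell. Of the 31 standard 20S and 19S subunits among the members, 0 passed the test, against 1.71% of all genes called lower and 1.67% called higher. With shares this small, 0 of 31 does not set these subunits apart from other genes. Of the 47 members, 2 (4.26%) were called lower in edgeR's quasi-likelihood test with Benjamini-Hochberg adjustment over all 19279 genes tested (adjusted p under 0.05), against 1.71% of all genes tested. None was called higher, against 1.67% of all genes. At an unadjusted p under 0.05 there were 6 lower members (12.8%, against 9.95% of all genes) and 2 higher members (4.26%, against 10.4%). The groups did not overlap, with all 6-shogaol libraries below all controls, for 8 members (17.0%, against 13.9% of all genes), and with all of them above for 3 members (6.38%, against 14.0%). These shares of all genes also stand beside the counts per class and per list below. The median log2 fold change of the members was -0.03, and that of all genes tested was -5.32e-05. In bulk libraries fewer cells of a kind and less RNA per cell cannot be told apart.

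**Figure D1:**
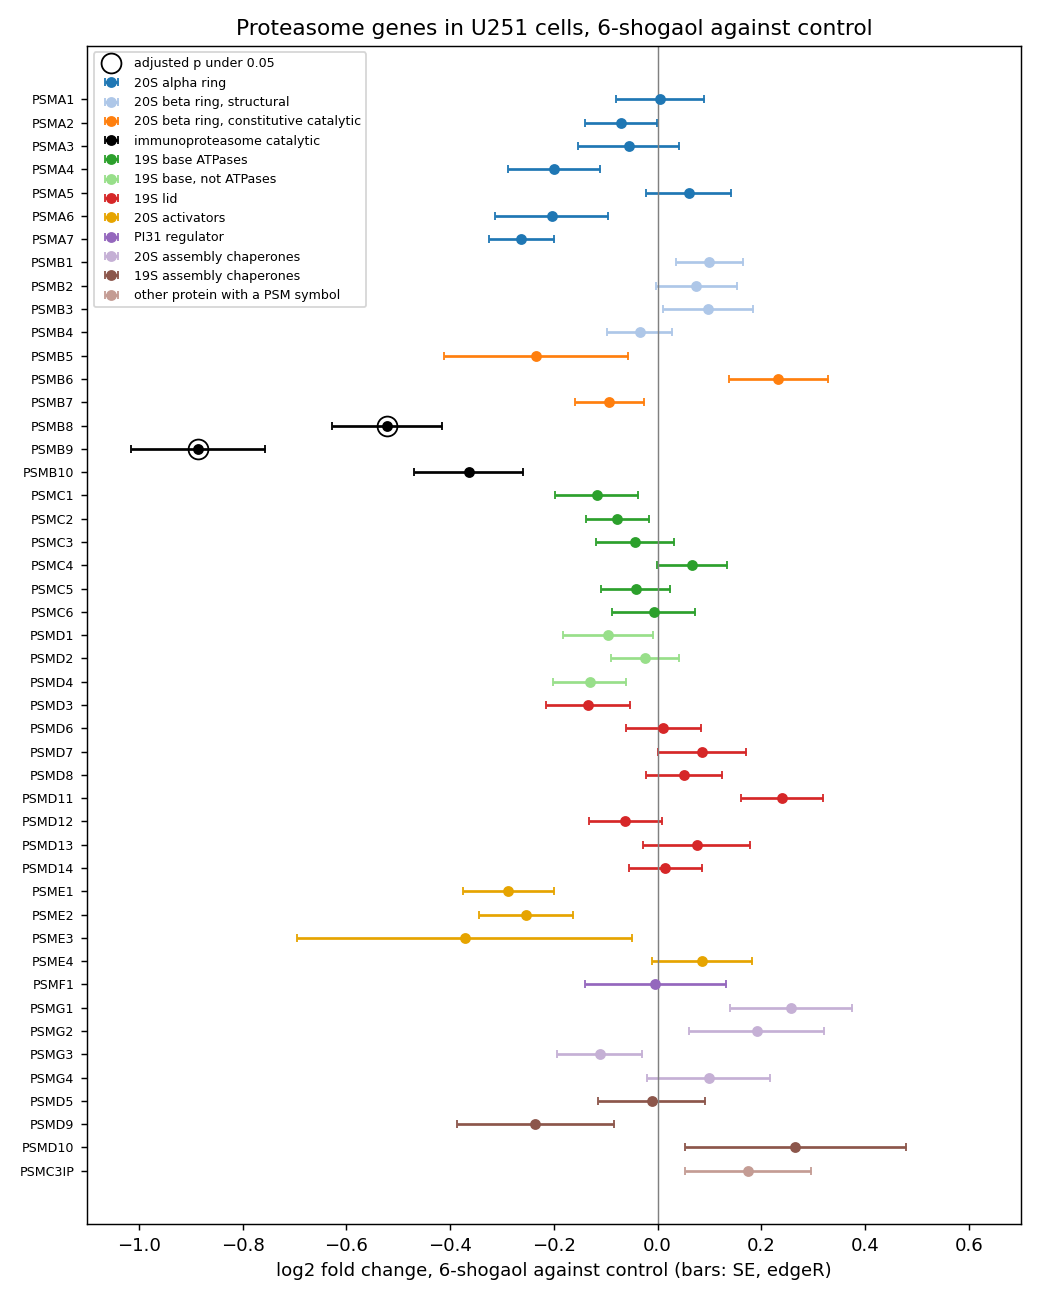
The horizontal axis gives the log2 fold change of each of the 47 members, 6-shogaol against control, with its standard error from edgeR as a bar, and colours mark the structural classes. The 2 circled genes, PSMB8 and PSMB9, passed the adjusted threshold, and the 31 standard subunits lie between -0.26 and 0.24.

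All 3 immunoproteasome subunits were below the controls in every 6-shogaol library. Their median log2 fold change was -0.52. PSMB9 (ENSG00000240065, chromosome 6, 32844136 to 32859851) encodes beta1i, which replaces PSMB6. Its level was 8.18, 9.49 and 9.72 CPM in control libraries 1 to 3 and 4.92, 4.80 and 5.10 CPM in 6-shogaol libraries 1 to 3. The 6-shogaol libraries lie close together and well below the lowest control. PSMB9 fell by 45.9%, from 9.13 ± 0.829 to 4.94 ± 0.148 CPM (mean ± SD, n = 3), with a log2 fold change in edgeR of -0.89 (SE 0.13, adjusted p = 0.0197). PSMB8 (ENSG00000204264, chromosome 6, 32840717 to 32844679) encodes beta5i, which replaces PSMB5. Its level was 36.2, 36.4 and 35.4 CPM in the controls and 28.8, 23.2 and 23.2 CPM with 6-shogaol. The controls were nearly alike, and 6-shogaol replicate 1 was the least lowered. PSMB8 fell by 30.3%, from 36.0 ± 0.551 to 25.1 ± 3.26 CPM (mean ± SD, n = 3), with a log2 fold change in edgeR of -0.52 (SE 0.11, adjusted p = 0.0492), just inside the threshold. PSMB10 (ENSG00000205220, chromosome 16, 67934506 to 67936850) encodes beta2i, which replaces PSMB7. It measured 19.035, 16.6 and 16.1 CPM in the controls and 13.3, 13.9 and 13.0 CPM with 6-shogaol. The groups did not overlap, but the log2 fold change of -0.36 (SE 0.11) did not pass over all genes (edgeR adjusted p = 0.115). Coordinates are those of the deposited table, where all 47 members overlap the same gene in GENCODE 29 on GRCh38.

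Both calls were lost in 5 of the 6 fits that left out 1 library. PSMB9 had an adjusted p in edgeR of 0.0546, 0.102 and 0.0834 without control replicate 1, 2 or 3, of 0.081 and 0.0748 without 6-shogaol replicate 2 or 3, and of 0.0327 without 6-shogaol replicate 1. PSMB8 had 0.146, 0.168, 0.129, 0.156 and 0.160 in the first 5 of these fits and 0.0188 without 6-shogaol replicate 1. The log2 fold change stayed below 0 in all 16 alternative fits for both genes, from -0.96 to -0.55 for PSMB9 and from -0.63 to -0.45 for PSMB8. PSMB8 shares 20.6% of its exon length with PSMB9 and the antisense PSMB8-AS1, PSMB9 shares 5.66%, and whether counting used strand is not given in the sources used here. PSMB8-AS1 itself measured 6.09, 5.53 and 3.63 CPM in the controls and 3.22, 3.39 and 3.84 CPM with 6-shogaol, which overlap. PSMB10 shares 34.8% of its exon length with a neighbour on its own strand listed as AC040162, at 2.94, 6.76 and 4.75 CPM in the controls and 2.53, 3.07 and 3.17 CPM with 6-shogaol. The part of shared reads in these values was not tested.

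The promoters of the immunoproteasome genes are shown because the 3 subunits and the neighbouring peptide transporter gene TAP1 had lower values together. Each is the RefSeq window from 250 bases before to 50 bases after a gene start on GRCh38.p14, read 5′ to 3′ along the gene. Capitals mark matches, on either strand, to the interferon-stimulated response element (ISRE, searched as GAAANNGAAA), the gamma-activated site (GAS, TTCNNNGAA) or the antioxidant response element (ARE, TGACNNNGC).
PSMB8 (chr6:32843998-32844297, minus strand): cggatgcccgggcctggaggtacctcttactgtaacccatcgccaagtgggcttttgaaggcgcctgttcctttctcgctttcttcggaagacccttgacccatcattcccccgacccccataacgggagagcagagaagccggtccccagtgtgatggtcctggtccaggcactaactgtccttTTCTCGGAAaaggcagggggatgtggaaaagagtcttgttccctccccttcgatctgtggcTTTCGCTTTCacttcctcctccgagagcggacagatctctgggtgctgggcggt
PSMB9 (chr6:32853942-32854241, plus strand): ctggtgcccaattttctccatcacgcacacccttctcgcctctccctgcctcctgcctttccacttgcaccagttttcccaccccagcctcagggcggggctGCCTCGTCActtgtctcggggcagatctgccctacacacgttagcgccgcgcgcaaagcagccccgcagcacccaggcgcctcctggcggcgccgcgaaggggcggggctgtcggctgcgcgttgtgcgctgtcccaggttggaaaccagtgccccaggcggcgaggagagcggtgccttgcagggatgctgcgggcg
PSMB10 (chr16:67936801-67937100, minus strand): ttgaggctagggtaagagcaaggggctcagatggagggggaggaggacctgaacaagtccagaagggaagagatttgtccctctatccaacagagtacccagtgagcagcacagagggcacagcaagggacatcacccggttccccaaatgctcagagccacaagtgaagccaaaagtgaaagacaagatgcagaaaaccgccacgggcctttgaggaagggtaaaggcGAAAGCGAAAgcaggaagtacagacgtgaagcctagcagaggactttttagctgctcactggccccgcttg
PSMB8 has an ISRE match on the reverse strand with its first base at -4 (the gene start is 0) and a GAS match at -65. A second RefSeq window of PSMB8 holds no match to these 3 motifs. PSMB10 has an ISRE match at -21. PSMB9 has an ARE match on the reverse strand at -148 and no ISRE match in its own window, which overlaps that of the divergently transcribed TAP1 by 13 bases.

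For comparison, stretches of 30 bases around the ISRE matches of the other members with one are shown, with TAP1 as the neighbour of PSMB9. Capitals mark the ISRE match, and in the TAP1 stretch the first of 2 overlapping matches (first bases at -134 and -128).
PSME1 (chr14:24136189-24136218, plus strand): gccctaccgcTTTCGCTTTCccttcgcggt
PSME2 (chr14:24146619-24146648, minus strand): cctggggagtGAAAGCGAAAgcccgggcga
PSMA4 (chr15:78540155-78540184, plus strand): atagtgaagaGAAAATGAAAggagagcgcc
PSMB4 (chr1:151399495-151399524, plus strand): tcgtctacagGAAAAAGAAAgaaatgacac
PSMG4 (chr6:3258904-3258933, plus strand): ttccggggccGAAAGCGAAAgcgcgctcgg
TAP1 (chr6:32853819-32853848, minus strand): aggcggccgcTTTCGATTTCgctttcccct
RefSeq windows matched 41 of the 47 members, with 51 windows in all. An ISRE match was in 7 of the 51 member windows (13.73%) and in 3.57% of all 35116 windows of the same length. The GAS letters were in 7 member windows (13.73%, against 7.66% of all), the ARE letters in 15 (29.41%, against 13.35%), and CCAAT in 21 (41.18%, against 34.61%). Members with an ISRE match differed in the size of their change. PSMB8 was called lower, and PSMB10, PSME1 and PSME2 had log2 fold changes from -0.36 to -0.25. PSMA4 had -0.20 (SE 0.09), PSMB4 -0.03 (SE 0.06) and PSMG4, the only one above 0, 0.10 (SE 0.12). Besides TAP1, other genes of the lists described below also had an ISRE match, and their stretches are not shown. TAP2 and TAPBP were called lower by edgeR (log2 fold changes -0.43 and -0.40). ERAP1 (-0.004), ERAP2 (-0.02), NGLY1 (-0.06) and FBXW7 (0.35) were not called. A match describes letters only and shows no binding.

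PSME1 and PSME2, which encode the alpha and beta chains of the interferon-inducible activator PA28, were also lower in every 6-shogaol library, without passing the adjusted threshold. PSME1 (chromosome 14, 24136163 to 24138967) measured 76.3, 69.0 and 64.0 CPM in the controls and 58.5, 59.0 and 53.9 CPM with 6-shogaol. The groups stood apart, and the edgeR log2 fold change was -0.29 (SE 0.09, adjusted p = 0.127). PSME2 (chromosome 14, 24143362 to 24147570) measured 94.8, 105 and 116 CPM in the controls and 90.4, 83.9 and 90.9 CPM with 6-shogaol. Control replicate 1 came close to the highest 6-shogaol library, and the log2 fold change was -0.25 (SE 0.09, edgeR adjusted p = 0.174). The 3 immunoproteasome subunits and the PA28 pair (2 of the 4 activators) were 5 of 5 with all 6-shogaol libraries below all controls. Of all genes tested, 13.9% had that order. These genes make up 5 of the 6 members lower at an unadjusted p under 0.05. The group of 5 was put together with earlier results of these data known, so its count is a description and no independent test.

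**Figure D2:**
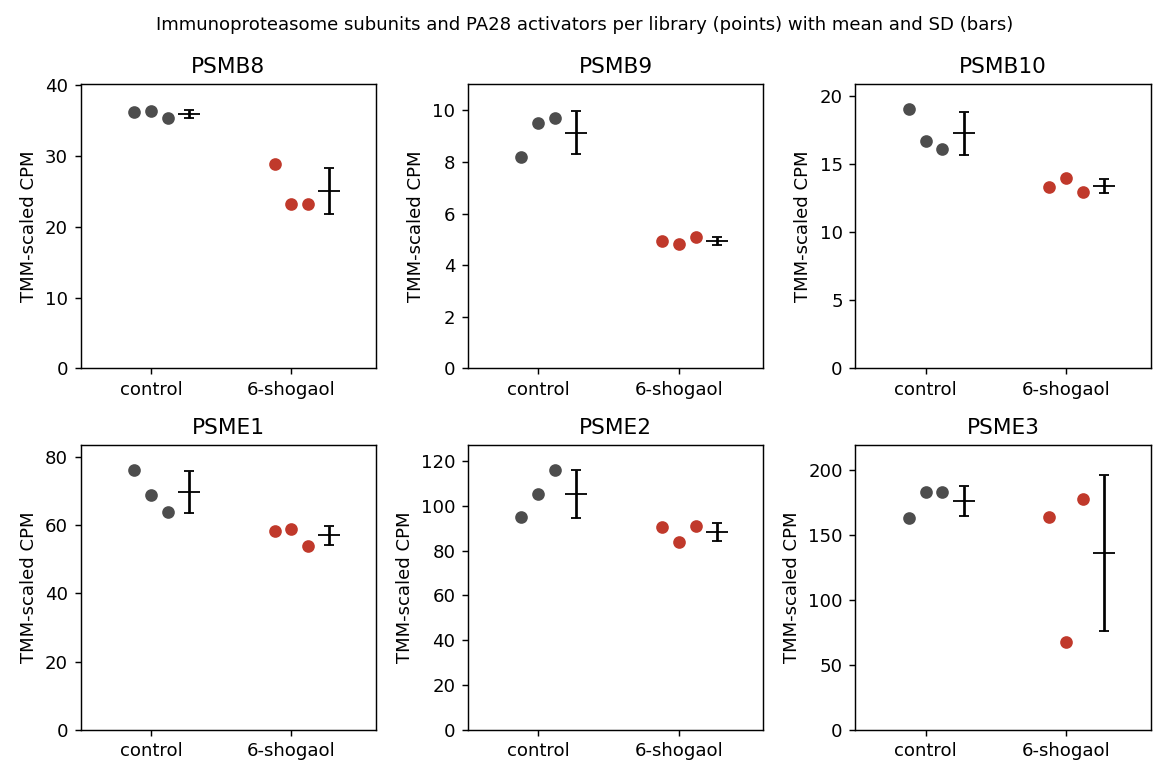
Each panel gives the TMM-scaled CPM of 1 gene, with points for libraries 1 to 3 of each group and the mean with its SD beside them. In PSMB8, PSMB9, PSMB10, PSME1 and PSME2 all 6-shogaol points lie below all controls, and in PSME3 only 6-shogaol replicate 2, at 67.2 CPM, stands apart.

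The remaining activators did not share this pattern. PSME3, the nuclear activator PA28 gamma, measured 163, 183 and 183 CPM in the controls and 164, 67.2 and 178 CPM with 6-shogaol. Only 6-shogaol replicate 2 was low, and the groups overlap. Its log2 fold change was -0.37 (SE 0.32, edgeR adjusted p = 0.582), and -0.05 without 6-shogaol replicate 2. PSME4, the large activator PA200, measured 94.9, 93.1 and 102 CPM in the controls and 104, 90.2 and 113 CPM with 6-shogaol. These overlap, with a log2 fold change of 0.09 (SE 0.10).

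Whether the balance between immunoproteasome and constitutive subunits differed was asked for each of the 3 catalytic places, as the immunoproteasome subunit's share of the pair's summed FPKM, a level per gene length. For the PSMB9 and PSMB6 pair the share was 3.48%, 3.95% and 4.07% in the controls and 1.96%, 1.85% and 1.62% with 6-shogaol. The groups are far apart, 3.83% ± 0.313 against 1.81% ± 0.173 (SD, n = 3; two-sided exact permutation p = 0.1, the smallest p that 3 libraries against 3 allow). The PSMB10 and PSMB7 pair had shares of 15.5%, 14.1% and 13.2% in the controls and 11.7%, 13.2% and 11.5% with 6-shogaol. Here control replicate 3 and 6-shogaol replicate 2 met (exact permutation p = 0.2). For the PSMB8 and PSMB5 pair the shares were 18.0%, 14.2% and 14.6% in the controls and 14.9%, 14.9% and 10.1% with 6-shogaol. These overlap (exact permutation p = 0.6), and PSMB5 was itself uneven between libraries. Adjusted over the 3 pairs, the values were 0.3, 0.3 and 0.6, and no pair could have passed in this design. Summed over the 6 catalytic subunits, the immunoproteasome part was 12.1%, 10.8% and 10.6% of the FPKM in the controls and 8.95%, 8.90% and 7.04% with 6-shogaol. The level of a share depends on the gene length used. Per length of the principal transcript, the PSMB8 share was 30.0% to 36.2% in the controls and 22.5% to 31.3% with 6-shogaol. The PSMB9 share was then 8.33% to 9.65% and 4.01% to 4.81%, and the PSMB10 share 10.0% to 11.9% and 8.71% to 10.1%.

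**Figure D3:**
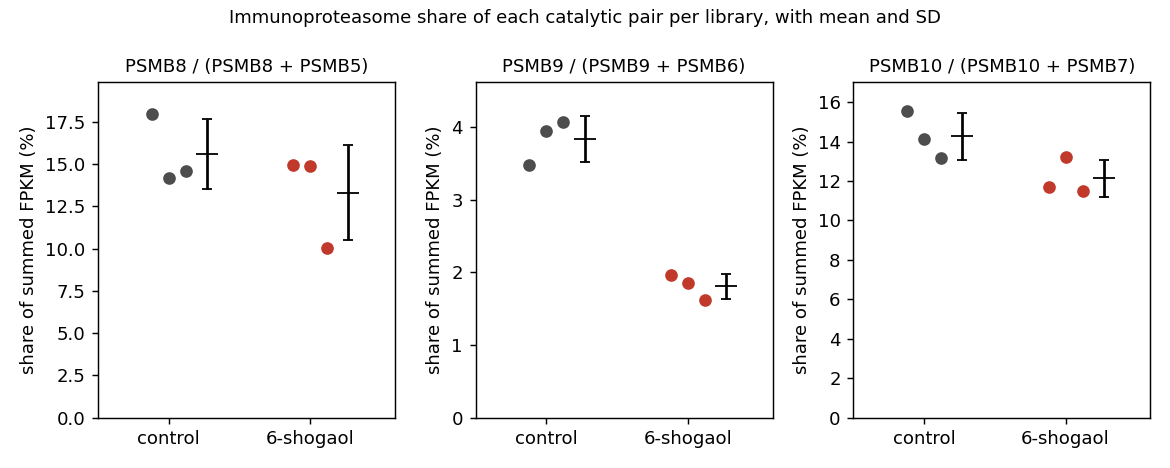
Panels give the share of the immunoproteasome subunit in the summed FPKM of its pair, in percent, with points for libraries 1 to 3 of each group and the mean with its SD. The PSMB9 shares separate the groups (3.48% to 4.07% against 1.62% to 1.96%), whereas the PSMB8 and PSMB10 shares overlap.

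The constitutive catalytic subunits went different ways and none was called. PSMB5, which holds the chymotrypsin-like site, measured 73.5, 97.8 and 91.9 CPM in the controls and 72.9, 58.8 and 92.0 CPM with 6-shogaol. It varied as much within groups as between them (log2 fold change -0.23, SE 0.18). PSMB6, with the caspase-like site, measured 98.1, 99.9 and 99.1 CPM in the controls and 106, 110 and 133 CPM with 6-shogaol. The groups did not overlap, and 6-shogaol replicate 3 was the highest (log2 fold change 0.23, SE 0.10, edgeR adjusted p = 0.23). PSMB7, with the trypsin-like site, measured 114, 111 and 116 CPM in the controls and 110, 100 and 109 CPM with 6-shogaol. Its groups touch without overlapping (log2 fold change -0.09, SE 0.07, edgeR adjusted p = 0.495).

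In the alpha ring, 0 of 7 genes were called by edgeR, with 1 lower at an unadjusted p under 0.05 and a class median of -0.07. That gene was PSMA7 (chromosome 20, 62136733 to 62143430), a ring subunit that had the highest level per length of all members. It measured 258, 258 and 257 CPM in the controls and 228, 210 and 207 CPM with 6-shogaol. The controls were nearly alike and every 6-shogaol library lay lower, and the edgeR log2 fold change was -0.26 (SE 0.06, adjusted p = 0.0719). It was called by DESeq2 (adjusted p = 0.0346) and by edgeR without 6-shogaol replicate 1 (adjusted p = 0.0313). PSMA5 had the highest fold change of the ring, with 102, 101 and 103 CPM in the controls and 96.2, 116 and 107 CPM with 6-shogaol. These overlap, and the log2 fold change of 0.06 (SE 0.08) became -0.01 without 6-shogaol replicate 2. The other 5 alpha genes lay between -0.20 and 0.00.

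The 4 structural beta genes held a narrow range, with 0 called, 0 at an unadjusted p under 0.05 and a median of 0.09. PSMB1 measured 126, 121 and 115 CPM in the controls and 126, 129 and 133 CPM with 6-shogaol (log2 fold change 0.10, SE 0.06). PSMB4 measured 107, 105 and 108 CPM in the controls and 99.8, 105 and 108 CPM with 6-shogaol (log2 fold change -0.03, SE 0.06). Both overlap between groups.

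Of the 17 members in the 19S cap, 0 were called by edgeR, with 1 higher and 0 lower at an unadjusted p under 0.05. Their median was -0.02. ADRM1 and SEM1 are also cap subunits, but the symbol rule leaves them out. ADRM1 was lower at an unadjusted p under 0.05 (log2 fold change -0.22, SE 0.07, edgeR adjusted p = 0.136), and SEM1 had -0.14 (SE 0.08). Among the 6 ATPases of the base, which unfold substrates, the fold changes lay between -0.12 and 0.07 on the log2 scale. PSMC1 was the lowest, at 127, 142 and 129 CPM in the controls and 112, 126 and 128 CPM with 6-shogaol, which overlap. PSMC1 shares 75.8% of its exon length with NRDE2 on the opposite strand, which measured 19.4, 20.4 and 21.0 CPM in the controls and 17.5, 16.1 and 17.2 CPM with 6-shogaol. PSMC4 was the highest, at 96.1, 94.2 and 105 CPM in the controls and 102, 103 and 104 CPM with 6-shogaol (log2 fold change 0.07, SE 0.07), and its groups overlap as well.

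Of the base subunits that are not ATPases, PSMD4, a receptor of ubiquitin chains, had the lowest value. It measured 127, 123 and 131 CPM in the controls and 123, 116 and 109 CPM with 6-shogaol (log2 fold change -0.13, SE 0.07, edgeR adjusted p = 0.356), and its groups overlap narrowly. PSMD1 and PSMD2, the scaffold subunits of the base, had -0.10 and -0.02. In the lid, which carries the deubiquitinase PSMD14, PSMD11 had the highest value, at 110, 123 and 120 CPM in the controls and 151, 133 and 135 CPM with 6-shogaol. Its groups did not overlap, and 6-shogaol replicate 1 was the highest (log2 fold change 0.24, SE 0.08, edgeR adjusted p = 0.148). PSMD3 had the lowest value of the lid, at 311, 310 and 333 CPM in the controls and 321, 278 and 270 CPM with 6-shogaol (log2 fold change -0.13, SE 0.08), with overlap. PSMD14 itself had 0.01 (SE 0.07).

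Over the 31 standard subunits the standard errors ran from 0.06 to 0.18, 13 had a fold change above 0 and 18 below, and the median was -0.03. DESeq2 called 1 of them, PSMA7, and limma on FPKM called 0. Their median standard error was 0.08, against 0.17 over all genes tested.

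**Figure D4:**
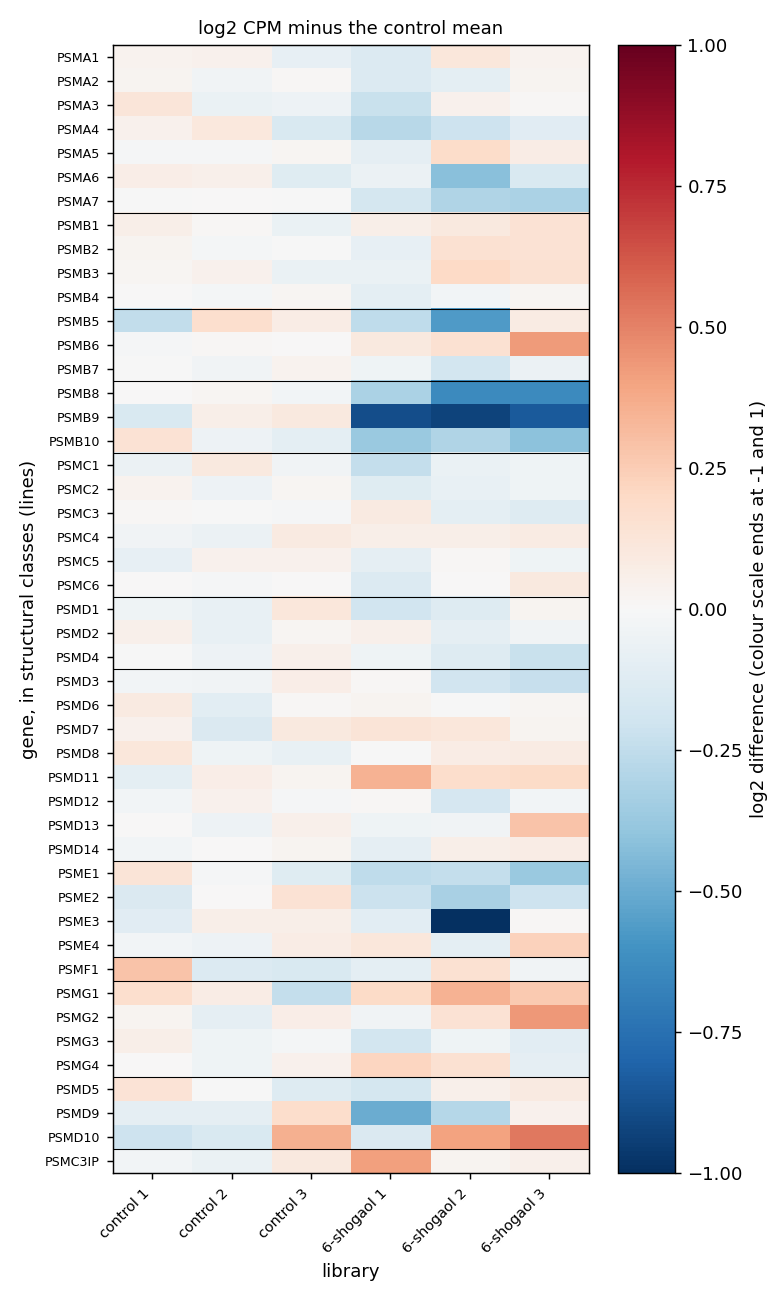
Colours give log2 CPM minus the control mean of each member (rows, in structural classes separated by lines) in the 6 libraries (columns), on a scale that ends at -1 and 1. PSMB9 is dark in all 3 6-shogaol libraries, and PSME3 in 6-shogaol replicate 2 lies beyond the scale at -1.39. PSMB5 has its lowest value (-0.57) in 6-shogaol replicate 2. PSMD10 is high in control replicate 3 and in 6-shogaol replicates 2 and 3 (highest value 0.53).

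The assembly factors, which build the core and the cap and then leave them, had 0 of 7 called and 0 at an unadjusted p under 0.05. PSMG1, which pairs with PSMG2 to assemble alpha rings, measured 35.1, 32.9 and 26.5 CPM in the controls and 35.7, 39.7 and 37.4 CPM with 6-shogaol. The groups did not overlap, but control replicate 1 nearly met the lowest 6-shogaol library (log2 fold change 0.26, SE 0.12, edgeR adjusted p = 0.277). PSMG3, which pairs with PSMG4, measured 28.7, 26.7 and 27.1 CPM in the controls and 24.2, 26.6 and 25.6 CPM with 6-shogaol (log2 fold change -0.11, SE 0.08). Its groups did not overlap but nearly met, at 26.7 and 26.6 CPM. Of the cap's chaperones, PSMD10 (gankyrin) measured 48.2, 50.1 and 71.4 CPM in the controls and 50.3, 73.7 and 80.2 CPM with 6-shogaol, and PSMD9 measured 35.3, 35.4 and 42.5 CPM and then 26.6, 30.9 and 38.7 CPM. Both overlap and were uneven within groups (log2 fold changes 0.27, SE 0.21, and -0.24, SE 0.15). PSMF1, the proteasome regulator PI31, had 0.00 (SE 0.14). PSMC3IP, which matches the symbol rule but encodes the meiotic recombination factor HOP2 and no proteasome subunit, measured 31.7, 30.9 and 34.6 CPM in the controls and 43.1, 33.0 and 33.5 CPM with 6-shogaol. It overlaps between groups, and 6-shogaol replicate 1 was high (log2 fold change 0.17, SE 0.12).

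Levels per length were set out in FPKM, the authors' values per kilobase of gene length and library size. PSMA7 was the highest in controls, at 123 ± 0.689 FPKM (SD, n = 3), above PSMD2 at 92.8 ± 4.33 and PSMC3 at 87.9 ± 0.641. PSMD2 and PSMC3 differ by about their spread. PSMB3 followed at 80.1 ± 2.50 FPKM. Among standard subunits PSMD6 was the lowest, at 7.19 ± 0.487 FPKM, within its spread of PSMC6 at 7.27 ± 0.080 FPKM. The immunoproteasome genes stood low in controls, with PSMB10 at 8.88 ± 0.765, PSMB8 at 8.67 ± 0.068 and PSMB9 at 2.29 ± 0.220 FPKM. The means of PSMB10 and PSMB8 were still above those of PSMD6 and PSMC6. PSMB10 and PSMB8 do not differ beyond their spread. PSMG4 was the lowest member, at 0.873 ± 0.032 FPKM. The median of the 31 standard subunits was 31.6 FPKM in controls and 31.2 FPKM with 6-shogaol, and the highest was 17.2-fold above the lowest in controls. These ranks depend on the length used. The length implied by the authors' values and the deposited count totals is a median of 1.18 times the union of all annotated exons of the gene (quartiles 1.16 and 1.18). Whether the gene lengths or the library totals used by the authors give this factor was not tested. Per kilobase of the principal transcript the same range was 10.3-fold, with PSMD6 at place 23 of the 47 members instead of 43. By that length PSMB8 was at place 30 instead of 39 and PSMB10 at 43 instead of 38. PSMB9 was then the lowest, at place 47 instead of 46, below PSMG4 at 46.

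**Figure D5:**
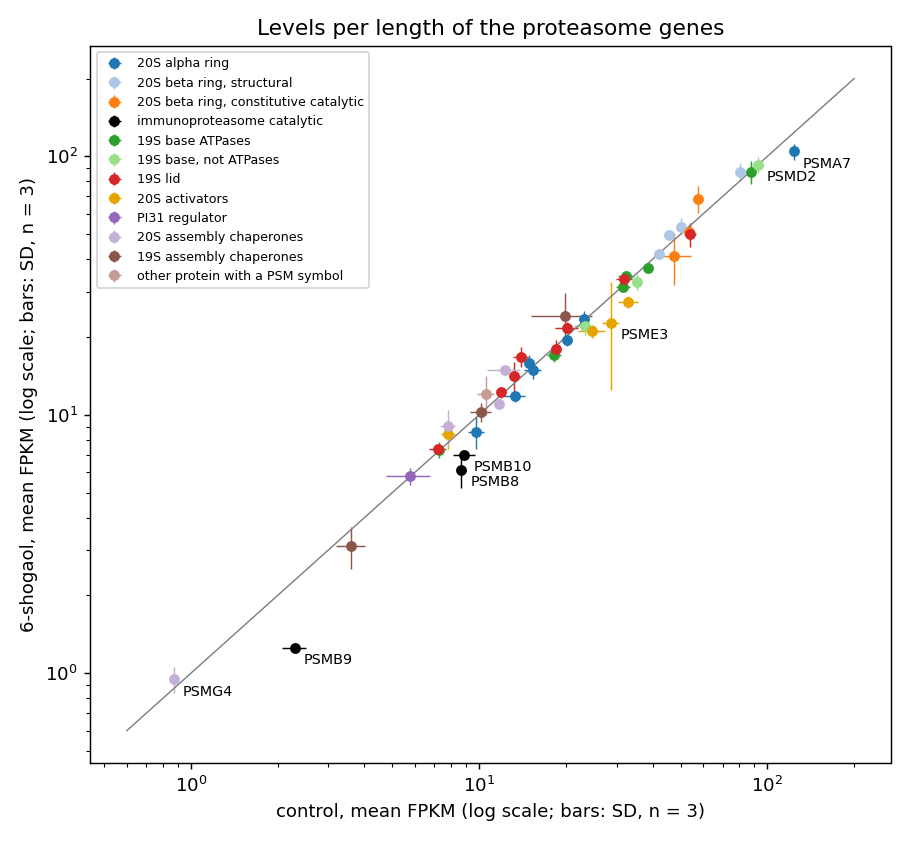
Mean FPKM of each member in controls (horizontal, log scale) against 6-shogaol (vertical, log scale), with SDs over 3 libraries as bars, colours for structural classes and a line of equal levels. PSMB9, at 2.29 and 1.25 FPKM, lies farthest below the line, with PSMB8 and PSMB10 beside it.

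Genes that work with the proteasome were read from 4 lists. Of all genes tested, edgeR called 1.71% lower and 1.67% higher. At an unadjusted p under 0.05, 9.95% were lower and 10.4% higher. DESeq2 called more genes than edgeR over the whole table. Of 13 other proteasome-bound factors, 0 were called by edgeR, with 2 higher and 2 lower at an unadjusted p under 0.05, a median of 0.02 and 1 called higher by DESeq2. The one with the smallest p was ZFAND5, a ubiquitin-binding activator of the 26S proteasome, at 207, 203 and 199.99 CPM in the controls and 174, 184 and 176 CPM with 6-shogaol. All 6-shogaol libraries were lower (log2 fold change -0.19, SE 0.06, edgeR adjusted p = 0.126). The gene called by DESeq2 was ZFAND2A, a stress-inducible proteasome-binding protein, at 8.59, 11.3 and 8.77 CPM in the controls and 11.01, 17.3 and 15.4 CPM with 6-shogaol, named after its values were seen. Its groups overlap (log2 fold change 0.61, SE 0.20, edgeR adjusted p = 0.145). Of 14 genes of the NFE2L1 axis, the factor, its processing enzymes and its partners, 0 were called by edgeR, with 3 higher and 1 lower at an unadjusted p under 0.05, a median of 0.05 and 1 called higher by DESeq2. NFE2L1 itself measured 470, 480 and 476 CPM in the controls and 340, 504 and 445 CPM with 6-shogaol, which overlap (log2 fold change -0.15, SE 0.13; named after its values were seen). SEL1L, an adaptor of the ER ubiquitin ligase SYVN1, measured 111, 107 and 115 CPM in the controls and 124, 144 and 139 CPM with 6-shogaol. Its groups did not overlap (log2 fold change 0.29, SE 0.08, edgeR adjusted p = 0.0923), and it was called by DESeq2 (adjusted p = 0.0484) and without 6-shogaol replicate 1 (edgeR adjusted p = 0.0361). Of 11 genes of ubiquitin supply and shuttling, 0 were called by edgeR, with 3 higher and 3 lower at an unadjusted p under 0.05, a median of -0.03 and 1 called lower by DESeq2. UBA1, the main ubiquitin-activating enzyme, measured 522, 518 and 553 CPM in the controls and 459, 430 and 426 CPM with 6-shogaol. All 6-shogaol libraries were lower (log2 fold change -0.28, SE 0.06, edgeR adjusted p = 0.0614), and it was called by DESeq2 (adjusted p = 0.0208), with a filter of 1 CPM in 3 libraries (edgeR adjusted p = 0.0482) and without 6-shogaol replicate 1 (edgeR adjusted p = 0.038).

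In the fourth list, MHC class I antigen processing and the factors that induce it, 8 of 10 genes had all 6-shogaol libraries below all controls (13.9% of all genes tested). Of the 10 genes edgeR called 6 lower and 0 higher, against 1.71% and 1.67% of all genes tested, with a median of -0.41. The list was chosen with earlier results of these data known, so these counts describe it and are no independent test. TAP1, a chain of the peptide transporter next to PSMB9, measured 60.1, 67.7 and 59.7 CPM in the controls and 34.9, 30.3 and 39.5 CPM with 6-shogaol. The groups lie far apart, and TAP1 fell by 44.2% (log2 fold change -0.84, SE 0.11, edgeR adjusted p = 0.0159). TAP2, the partner of TAP1, measured 80.3, 86.7 and 89.9 CPM in the controls and 64.9, 60.4 and 65.6 CPM with 6-shogaol. All 6-shogaol libraries were lower, and it fell by 0.43 on the log2 scale (SE 0.07, edgeR adjusted p = 0.0341), with 32.3% of its exon length shared with a neighbour on its own strand. TAPBP, NLRC5 and STAT2 were also called, and the peptidases ERAP1 and ERAP2 had 0.00 and -0.02. The number called was 0 of 10 without control replicate 1, 2 or 3, 1 without 6-shogaol replicate 2, 2 without 6-shogaol replicate 3 and 6 without 6-shogaol replicate 1, while the median stayed between -0.44 and -0.39 in these fits. Without control replicate 1, 2 or 3 the edgeR adjusted p was 0.0619, 0.0769 and 0.0544 for TAP1 and 0.0793, 0.132 and 0.11 for TAP2. TAP2 had 0.113 without 6-shogaol replicate 2 and 0.107 without 6-shogaol replicate 3.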

How the data were processed

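U251 RNA was sequenced in 6 libraries (SMARTER mRNA-Seq kit, per the labels' protocols), grouped by their titles. The authors deposited raw counts per gene, with no normalization. They also deposited FPKM values for the same genes, per the file headers. All 60612 identifiers are human, although the builds in the submitters' processing notes, GRCm38 and mm10, are those of mouse. Aligner and counter are not given in the sources used here.

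Genes were tested with edgeR 4.0.16 (R 4.3.3; filterByExpr, TMM, glmQLFit and glmQLFTest) on the whole table. This kept 19279 genes and all 47 members, with p-values adjusted by Benjamini-Hochberg over all of them and a threshold of 0.05. A standard error is the size of the log2 fold change over the square root of its F statistic. The members, the gene lists and the tests were chosen with earlier results of these data known. Members given library by library were those with an unadjusted p under 0.05, the catalytic subunits, PSME1, PSME2, PSMC3IP and the highest and lowest fold change of each class. Of each list, up to 3 called genes, or else the gene with the smallest p, were given in the same way, except 1 that is not reported here. Pair shares were compared by exact permutation (scipy 1.17.1). On simulated data with 19279 genes edgeR made 9 false calls, and it recovered 8% of 1.5-fold, 54% of 2-fold, 78% of 3-fold and 84% of 4-fold changes among genes of the whole table with a mean count of at least 50. No library repeated another: between replicates chi-square per degree of freedom was at least 34.4. It was highest for 6-shogaol replicate 1 against 6-shogaol replicate 2 (70.83) and replicate 3 (60.44). Exon sharing came from GENCODE 29. The comparison was repeated with DESeq2 1.42.0, with RLE or upper-quartile scaling, with other count filters, with robust moderation, with a block for the replicate number and with single libraries left out. It was also repeated with limma 3.58.1 on log2(FPKM + 1) and log2(FPKM + 0.1), both filtered at an FPKM of 1 in 3 libraries, and on the former unfiltered. Pair shares per principal transcript length were added after the data were seen.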

Additional observations from a re-analysis of the deposited data

How the results depend on the processing

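The number of all genes called (651) was 1561 with DESeq2, 378 with no filter on counts, 272 with limma on log2(FPKM + 1) with no filter, and 98 to 1012 with 1 library left out. The number of members called (2) was 1 with no filter on counts, 1 with limma on log2(FPKM + 0.1), 0 with limma on log2(FPKM + 1) with no filter, and 0 to 3 with 1 library left out. Members at an unadjusted p under 0.05 (8) numbered 6 to 14 with 1 library left out, where the 14 were without 6-shogaol replicate 1. The members' median of -0.03 was -0.0159 and -0.0163 with limma on log2(FPKM + 1) and log2(FPKM + 0.1), -0.0129 with no filter, and -0.0594 to -0.0032 with 1 library left out. PSMA5 turned from 0.06 to -0.0067 without 6-shogaol replicate 2, in a range of -0.0067 to 0.13 over the fits with 1 library left out. The cause of these shifts was not tested.

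With the replicate number as a block, 3 genes and 0 members were called. Libraries of the same number did not deviate together over all genes tested (r = -0.03, 0.06 and -0.04, with 1 of 3 numbers its own best partner). The labels do not say what a shared number stands for, and these correlations cannot settle it.

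Of the 480 comparisons of a named gene's fold change with an alternative, 438 kept direction and side of the threshold, 34 lost the threshold, 7 gained it and 1 reversed. With 1 library left out, the difference in the pair share (6-shogaol minus control, in percentage points) ran from -3.11 to -0.67 for PSMB8, from -2.20 to -1.91 for PSMB9 and from -2.68 to -1.50 for PSMB10. The PSMB8 difference was -0.67 without 6-shogaol replicate 3 and -1.104 without control replicate 1. Another length scales each pair by a constant, so it could not change the order of the libraries. The lowest member count in a library was 222.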

Other observations

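Symbols outside the members show little expression. PSMA8, the alpha subunit known from testis, had 0 counts in all 6 libraries, which allows up to 0.05 to 0.0689 CPM per library (3 counts, counting error only). PSMB11, the thymus beta subunit, had 4 counts in 6-shogaol replicate 1 and 0 counts in the other 5. Processed copies of member genes took few reads: 35 rows carry the name of a member with a pseudogene ending, for 14 parents, and 6 of them reached a mean count of 10. PSMC1 had the largest share in its copies, 4.98% of the counts of gene and copies together, followed by PSMA6 with 2.42%, and PSME2 had 0.47%.

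Other genes of the lists had values far from 0 without passing over all genes. IRF9, a partner of STAT2 in interferon signalling, measured 23.5, 46.9 and 24.7 CPM in the controls and 15.1, 19.9 and 12.6 CPM with 6-shogaol. Control replicate 2 was far above the others (log2 fold change -1.0003, SE 0.30, edgeR adjusted p = 0.122). IRF9 shares 48.4% of its exon length with a neighbour on its own strand, and the part of shared reads was not tested. The small MAF proteins, partners of NFE2L1 and NFE2L2, had values above 0 for MAFF (log2 fold change 0.45, SE 0.12), MAFG (0.57, SE 0.40) and MAFK (0.38, SE 0.29). MAFG measured 93.5, 101 and 29.6 CPM in the controls and 115, 106 and 112 CPM with 6-shogaol, so that control replicate 3 stands apart. The ubiquitin genes went different ways, with UBB at -0.28 (SE 0.10) and RPS27A at 0.18 (SE 0.06). These genes were named after their values were seen.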
